A study of Mus musculus with 8 samples.

Results

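Synaptic vesicle and SNARE genes of the ventral lumbar spinal cord showed no difference between MLC/SOD1G93A and FVB mice that passed the adjusted threshold, and nearly all of them lay close to equal levels in the 2 genotypes. The largest difference was in Rab37, a small GTPase of secretory granules, which was 1.36-fold lower in MLC/SOD1G93A mice (log2 difference −0.44 ± 0.11 SE, 4 arrays per genotype). Cplx1, a complexin that holds and then assists vesicle fusion, was 1.2-fold lower, while Unc13b, a priming factor, and Rab38, a GTPase known from pigment granules, were 1.16-fold and 1.17-fold higher. These 4 were the members with an unadjusted p under 0.05. Snap25, a core SNARE of every fast synapse, differed by −0.0070 ± 0.064 (SE).

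The genes were taken by symbol: the SNARE families (syntaxins, VAMPs and SNAPs), synaptotagmins, syntaxin-binding proteins, complexins, RIM and UNC13 proteins, synapsins, SV2 proteins, the synaptophysin and synaptogyrin relatives, and every symbol that starts with Rab3. This gave 94 genes of the 22180 that had a row with exactly 1 symbol, and where a gene had several rows the one of highest mean over all arrays was kept. The letters of the rule also took in 12 Rab GTPases from Rab30 to Rab39b, which are not Rab3 proteins, the pseudogene Stxbp3-ps, and Snap91, the clathrin adaptor AP180, which shares only its name with the SNAREs.

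RNA from ventral lumbar spinal cord was hybridised to Affymetrix Mouse Gene arrays, with 4 arrays of MLC/SOD1G93A mice and 4 of FVB mice, all at 120 days of age. MLC/SOD1G93A mice carry the mutant SOD1G93A transgene driven by the myosin light chain promoter (MLC), which is specific to muscle, so the cord was sampled as a tissue that the promoter does not target, and FVB is the control strain. Whether every array comes from its own animal is not stated in the labels, so each p rests on a spread between samples that may be partly technical. The values are log2 signals, in which a difference of 1 is a doubling, and all differences are MLC/SOD1G93A minus FVB.

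A synaptic vesicle fuses when a SNARE on the vesicle (a VAMP) zips together with a syntaxin and a SNAP protein on the nerve terminal membrane. Munc18 proteins and UNC13 proteins prepare this complex, RIM proteins and Rab3 hold the vesicle at the release site, complexin clamps it, and synaptotagmin releases the clamp when calcium enters. Relatives of the same proteins carry out fusion in endosomes, lysosomes and secretory granules of all cells. In the ventral cord the machinery serves the terminals that end on motor neurons and interneurons, whereas the main terminals of motor neurons lie in muscle and outside the sample. The arrays measured RNA and not terminals, and RNA of motor neuron markers was read in the sample.

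The tissue label was checked against marker genes. All 12 neuron markers, all 11 dorsal horn markers and 8 of 9 motor neuron markers analysed lay above the median row of the array (5.333). The mean of the dorsal horn markers was 7.68 to 8.06 on the MLC/SOD1G93A arrays and 7.82 to 7.96 on the FVB arrays. The markers therefore do not show that the samples held ventral cord alone. The mean of the neuron markers was 9.54 to 9.62 on the MLC/SOD1G93A arrays and 9.55 to 9.65 on the FVB arrays, and that of the motor neuron markers was 6.68 to 7.09 against 6.67 to 7.11. Other tissue differed between arrays. Markers of dorsal root ganglion sensory neurons stood at 6.61 and 6.68 on MLC/SOD1G93A replicates 1 and 2 and at 6.07 and 6.19 on FVB replicates 2 and 4, against 4.89 to 4.97 on the other 4 arrays. Schwann cell markers (8 of 8 higher) averaged 7.64 to 8.24 in MLC/SOD1G93A and 7.21 to 7.71 in FVB samples. Of these, the study had listed Pmp22, Drp2, Egr2, Dhh and Plekha4 as up-regulated in the same data, so their direction was known beforehand. Oligodendrocyte markers (11 of 11 lower) averaged 9.30 to 9.58 against 9.62 to 9.88, so that the genotypes did not overlap. The study had likewise reported Opalin and Mag as lower. Caudal Hox genes, which mark the level along the body axis, differed by 0.72, and 9 of 10 were higher. Hoxc13 and Hoxd10 among them were in the study's list of up-regulated genes. Xist, made by the inactive X chromosome of females, was at 10.38 or above on MLC/SOD1G93A replicates 3 and 4 and FVB replicate 4. The other 5 arrays gave 4.50 or less. Each genotype thus held both sexes, evenly in MLC/SOD1G93A and unevenly in FVB samples, and arrays from more than 1 animal. In bulk tissue, fewer cells of a type and less RNA per cell cannot be told apart.

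Of the 94 genes, 88 lay above the median row, and 46 had a higher and 48 a lower mean in MLC/SOD1G93A samples. Their median difference was −0.00295, against 0.0041 over all 41345 rows. No member passed an adjusted p of 0.05 by limma (Benjamini-Hochberg over all rows), and neither did any other row (0% of rows, smallest adjusted p 0.359). At an unadjusted p under 0.05, 2 members were higher (Unc13b and Rab38) and 2 lower (Cplx1 and Rab37), where 3.61% of all rows were higher and 3.08% lower. That is 4.26% of the members in both directions together, against 6.70% of all rows. Among the 22180 genes with 1 row each it was 6.17% (624 higher and 745 lower).

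The 2 genotypes did not overlap for 8 members. Unc13b, Rims1, Stxbp5l and Rab38 were higher on all 4 MLC/SOD1G93A arrays than on any FVB array, and Cplx1, Sv2a, Stxbp2 and Rab37 were lower. Over all rows 2.11% were apart in the higher direction and 2.1% in the lower, which makes 4.21% together, against 8.51% of the members. Among the 22180 genes with 1 row each, 4.77% were apart. The precision was close for most members. The 95% interval of the difference lay within 1.2-fold in either direction for 43 of 94 members and within 1.5-fold for 92, Rab37 and Synpr being the exceptions. The median half-width of these intervals was 0.19, or 1.14-fold, set by the 4 arrays per genotype.

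**Figure D1:**
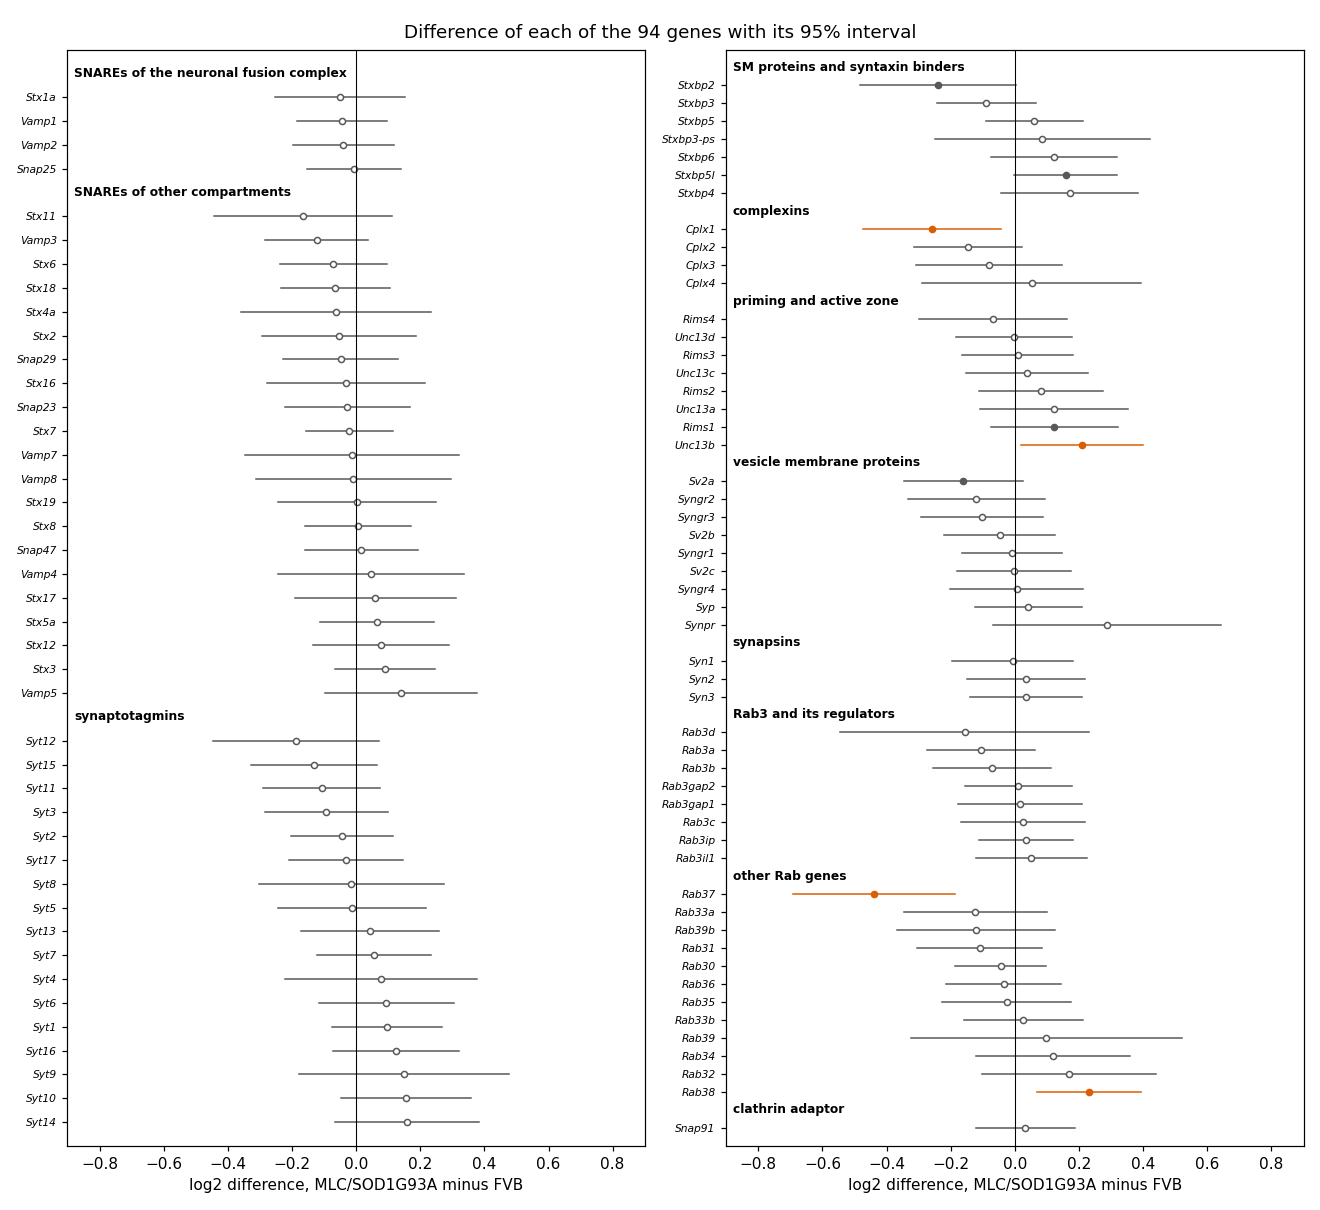
Difference of each of the 94 genes in log2 signal, MLC/SOD1G93A minus FVB (x axis), by role group, with its 95% interval from limma; orange marks an unadjusted p under 0.05 and filled grey marks genes whose genotypes do not overlap at a larger p. Most intervals cross 0 and stay within 0.4, and Rab37 at −0.44 is the widest difference.

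The SNAREs that drive neuronal exocytosis were near equal. Snap25, the SNAP protein of the nerve terminal membrane, gave log2 signals of 12.79, 12.87, 12.89 and 12.93 in MLC/SOD1G93A samples and 12.92, 12.87, 12.84 and 12.88 in FVB samples. Its interval allows at most 1.11-fold lower or 1.10-fold higher. The 2 vesicle SNAREs, Vamp1 (synaptobrevin 1, prominent in spinal cord and at motor terminals) and Vamp2 (synaptobrevin 2), differed by −0.045 ± 0.061 and −0.040 ± 0.069 (SE). Stx1a, the syntaxin of the terminal membrane, differed by −0.051 ± 0.088. All 4 estimates lay below 0, none had an unadjusted p under 0.05, and all 4 intervals stayed within 1.2-fold.

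Among the 21 SNAREs of other compartments, 9 were higher and 12 lower, and none had an unadjusted p under 0.05 or genotypes that did not overlap. Their differences ran from −0.16 in Stx11, a syntaxin of immune cells, to 0.14 in Vamp5, a VAMP of muscle and other tissues. The lowest p was that of Vamp3, the cellubrevin of recycling endosomes (8.13, 7.92, 8.08 and 8.02 in MLC/SOD1G93A against 8.17, 8.20, 8.15 and 8.12 in FVB samples, difference −0.12 ± 0.070 SE, unadjusted p = 0.118). MLC/SOD1G93A replicate 1 lay within the FVB range of Vamp3, and the other 3 arrays below it.

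The 17 synaptotagmins were split 9 higher to 8 lower, with a median of 0.043 and differences from −0.19 to 0.16. None had an unadjusted p under 0.05. Syt1 and Syt2 are the calcium sensors of fast release, and Syt2 is the form that prevails in spinal cord and brain stem. Syt1 gave 10.29, 10.47, 10.38 and 10.25 in MLC/SOD1G93A samples against 10.24, 10.33, 10.18 and 10.25 in FVB samples, a difference of 0.097 ± 0.075 (SE, unadjusted p = 0.231). Syt2 gave 9.01, 9.05, 9.07 and 9.15 against 9.21, 9.12, 9.02 and 9.10, a difference of −0.045 ± 0.070 (SE, unadjusted p = 0.535). Both genes overlapped between genotypes. Syt10, a calcium sensor of peptide-containing vesicles in mouse olfactory neurons, had the lowest p of the family (0.156 ± 0.088 SE, unadjusted p = 0.113). FVB replicate 3 was its lowest array at 7.86, with the other FVB arrays at 8.02 to 8.16 and the MLC/SOD1G93A arrays at 8.09 to 8.28.

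The complexins bind the zipped SNARE complex and hold it short of fusion. Cplx1 was the only one of the 4 with an unadjusted p under 0.05. Its log2 signals were 10.88, 10.59, 10.68 and 10.90 in MLC/SOD1G93A samples, against 11.02, 11.11, 10.91 and 11.04 in FVB samples. Every MLC/SOD1G93A array lay below every FVB array, but MLC/SOD1G93A replicate 4 (10.905) and FVB replicate 3 (10.907) were nearly the same. The difference was −0.26 ± 0.094 (SE, 95% interval −0.47 to −0.044, limma unadjusted p = 0.0236, adjusted p = 0.690). Without MLC/SOD1G93A replicate 2 or 3 or FVB replicate 2 or 4, the unadjusted p was 0.0612, 0.0598, 0.0622 and 0.0506.

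Cplx2, the other complexin of brain and cord, leaned the same way at 7.07, 7.10, 7.09 and 7.20 in MLC/SOD1G93A against 7.32, 7.16, 7.20 and 7.36 in FVB samples (−0.15 ± 0.074 SE, unadjusted p = 0.0802). Only MLC/SOD1G93A replicate 4 reached into the FVB range. Cplx3 and Cplx4, known from ribbon synapses of the retina, differed by −0.080 and 0.052, and Cplx4 lay below the median row.

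The arrays with the lowest Cplx1, MLC/SOD1G93A replicates 2 and 3, were also those with the lowest oligodendrocyte markers (9.30 and 9.34). With the oligodendrocyte marker mean as a covariate the difference of Cplx1 was −0.11 (unadjusted p = 0.596). Neuron markers moved far less, by −0.030, and with their mean as a covariate Cplx1 differed by −0.23 (unadjusted p = 0.0621). The oligodendrocyte means of the genotypes do not overlap, and neither do those of astrocyte markers (8 of 9 lower, 8.64 to 8.97 in MLC/SOD1G93A against 8.99 to 9.14 in FVB samples) and of microglia markers (8 of 8 lower, 6.61 to 6.72 against 6.74 to 7.01). MLC/SOD1G93A replicate 2 was the lowest array in all 3 lists. Glial marker level and genotype therefore cannot be told apart, and the part of astrocytes and microglia was not tested.

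Priming proteins turn a docked vesicle into one ready for release, and 6 of the 8 members with this role or at the active zone had a higher mean in MLC/SOD1G93A samples (median 0.060). Unc13b, which encodes Munc13-2, gave 6.92, 7.10, 6.84 and 7.004 in MLC/SOD1G93A samples against 6.68, 6.68, 6.84 and 6.83 in FVB samples. The genotypes touched without overlapping, at 6.836 on MLC/SOD1G93A replicate 3 and 6.835 on FVB replicate 3. The difference was 0.21 ± 0.083 (SE, 95% interval 0.018 to 0.40, limma unadjusted p = 0.0353, adjusted p = 0.723). Leaving out MLC/SOD1G93A replicate 2 or 4 or FVB replicate 1 or 2 gave an unadjusted p of 0.0906, 0.0765, 0.0886 and 0.0869.

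Unc13b was highest on MLC/SOD1G93A replicates 1, 2 and 4, which were also the 3 arrays with the highest Schwann cell markers (8.24, 8.23 and 8.14). With the Schwann cell marker mean as a covariate its difference was 0.0076 (unadjusted p = 0.957). The marker mean also differed between genotypes, by 0.68, and the 2 cannot be told apart on these 8 arrays. Unc13a, which encodes Munc13-1, the main priming factor of most synapses, differed by 0.12 ± 0.10 (SE, unadjusted p = 0.258) and was highest on MLC/SOD1G93A replicate 2 (8.43). Unc13d, known from granule release in blood cells, differed by −0.0027.

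Rims1 encodes RIM1, the scaffold that ties vesicles and calcium channels to the release site. It gave 8.40, 8.49, 8.41 and 8.41 in MLC/SOD1G93A samples against 8.36, 8.40, 8.09 and 8.37 in FVB samples. The genotypes did not overlap, but MLC/SOD1G93A replicate 1 (8.4042) and FVB replicate 2 (8.4036) were nearly the same, and FVB replicate 3 was far the lowest. The difference was 0.12 ± 0.086 (SE, unadjusted p = 0.190). Its paralogue Rims2 differed by 0.081 (unadjusted p = 0.361).

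The stretch of 250 bases before the RefSeq start site is shown for the genes of 4 release proteins whose genotypes did not overlap, since their start regions can be compared with those of all mouse genes (build GRCm38.p6, read 5′ to 3′ on the gene's strand). Capitals mark the GC box GGGCGG, read on either strand (CCGCCC), and in Unc13b also the E-box CACGTG. The windows are chr5:108550028-108550277 (minus strand) for Cplx1, chr3:96180977-96181226 (plus) for Sv2a, chr1:22806159-22806408 (minus) for Rims1 and chr4:43058703-43058952 (plus) for Unc13b.
Cplx1: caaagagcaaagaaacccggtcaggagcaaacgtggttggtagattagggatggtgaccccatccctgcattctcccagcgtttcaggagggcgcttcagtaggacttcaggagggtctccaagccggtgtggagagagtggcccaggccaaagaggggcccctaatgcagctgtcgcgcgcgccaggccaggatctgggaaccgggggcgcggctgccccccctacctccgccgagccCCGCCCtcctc
Sv2a: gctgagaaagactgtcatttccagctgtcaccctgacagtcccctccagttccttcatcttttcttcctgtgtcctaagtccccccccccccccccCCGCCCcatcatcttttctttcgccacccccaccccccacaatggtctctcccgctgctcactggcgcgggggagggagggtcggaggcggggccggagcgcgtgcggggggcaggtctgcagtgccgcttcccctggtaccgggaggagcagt
Rims1: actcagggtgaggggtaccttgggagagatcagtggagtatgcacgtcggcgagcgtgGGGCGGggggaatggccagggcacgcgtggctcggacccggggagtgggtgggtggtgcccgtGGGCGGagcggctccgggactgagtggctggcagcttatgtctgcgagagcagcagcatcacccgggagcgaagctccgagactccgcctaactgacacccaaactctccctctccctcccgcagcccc
Unc13b: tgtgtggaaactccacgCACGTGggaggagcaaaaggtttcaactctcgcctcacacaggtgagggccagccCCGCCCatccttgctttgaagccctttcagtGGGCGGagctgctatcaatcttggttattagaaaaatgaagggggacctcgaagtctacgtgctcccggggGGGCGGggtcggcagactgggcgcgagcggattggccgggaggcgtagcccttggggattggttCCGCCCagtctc

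Cplx1 and Sv2a held 1 GC box each, Rims1 held 2 and Unc13b held 4 with 1 E-box. Whether GC boxes go with the direction of a difference was not tested. RefSeq promoter windows were matched for 72 of the 94 members, which had 94 windows in all. A GC box stood in 62.8% of them and in 32.7% of all 32851 mouse windows, and the median number of CpG pairs was 14 against 6. The E-box stood in 12.8% against 6.02%. The motif TGACGTCA, bound by CREB, stood in 2.13% against 1.55%, and TTCAGCACC, the left part of the element bound by the neuronal repressor REST, in 1.06% against 0.301%, that is in Syn1 alone. An E-box that ends in G can share that letter with a GC box, and a match describes the sequence only.

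**Figure D2:**
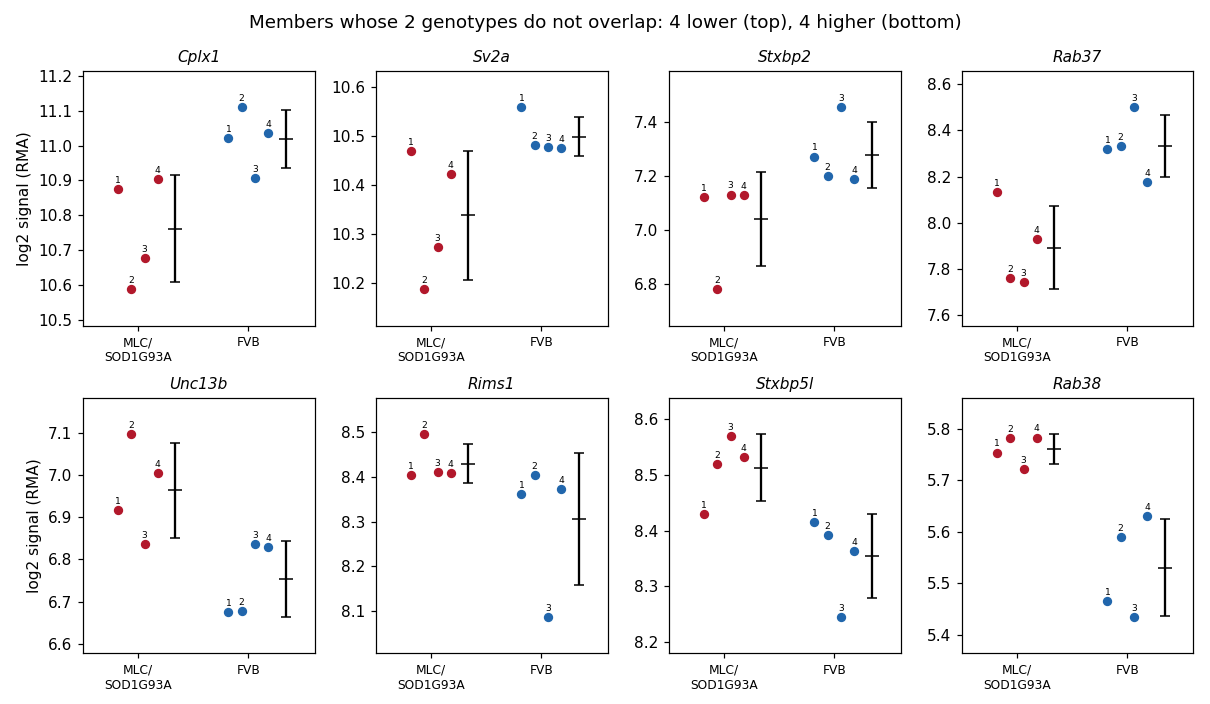
Log2 signal on each array (points, numbered by replicate) for the 8 genes whose genotypes do not overlap, with mean and SD beside each group, MLC/SOD1G93A left and FVB right; each panel has its own y axis. The groups nearly touch in Rims1, Unc13b, Cplx1 and Sv2a, and the gap is widest in Rab38 (5.72 against 5.63).

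Munc18 proteins and other syntaxin binders made up 7 members, of which 5 were higher and 2 lower. Stxbp5l, which encodes tomosyn-2, an inhibitor that occupies syntaxin and SNAP25, gave 8.43, 8.52, 8.57 and 8.53 in MLC/SOD1G93A samples against 8.41, 8.39, 8.25 and 8.36 in FVB samples. All 4 MLC/SOD1G93A arrays were higher, with FVB replicate 3 the lowest (0.16 ± 0.070 SE, unadjusted p = 0.0522). Its relative Stxbp5, tomosyn-1, differed by 0.060 (unadjusted p = 0.390).

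Stxbp2 encodes Munc18-2, which serves granule release in blood and epithelial cells. It gave 7.12, 6.78, 7.13 and 7.13 in MLC/SOD1G93A samples against 7.27, 7.20, 7.45 and 7.19 in FVB samples, a difference of −0.24 ± 0.11 (SE, unadjusted p = 0.0539). The highest MLC/SOD1G93A array was at 7.13 and the lowest FVB array at 7.19, and MLC/SOD1G93A replicate 2 stood far below the other 3. MLC/SOD1G93A replicate 2 was also the lowest array for microglia, oligodendrocyte and endothelium markers. FVB replicate 3 was the highest for Stxbp2 and for each of these lists. The part of microglia or endothelial cells in the value of Stxbp2 was not tested, and oligodendrocyte marker level cannot be told apart from genotype.

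Proteins of the vesicle membrane were nearly level, with 3 of 9 higher, 6 lower and a median of −0.0088. Sv2a, a vesicle glycoprotein that binds the drug levetiracetam, gave 10.47, 10.19, 10.27 and 10.42 in MLC/SOD1G93A samples against 10.56, 10.48, 10.48 and 10.48 in FVB samples. The FVB arrays lay all above the MLC/SOD1G93A arrays, of which replicates 2 and 3 were the lowest, as for Cplx1 (−0.16 ± 0.082 SE, unadjusted p = 0.0831). MLC/SOD1G93A replicate 1 (10.470) and FVB replicate 4 (10.476) were nearly the same. Its paralogues Sv2b and Sv2c, which like Sv2a serve as receptors of botulinum toxin, differed by −0.048 (unadjusted p = 0.547) and −0.0032 (unadjusted p = 0.968).

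Syp, synaptophysin, the most used marker of synaptic vesicles, gave 10.19, 10.23, 10.38 and 10.17 in MLC/SOD1G93A samples against 10.15, 10.16, 10.27 and 10.22 in FVB samples. The arrays were mixed and the difference was 0.042 ± 0.073 (SE, unadjusted p = 0.580). Synpr, synaptoporin, a relative made by subsets of neurons, had the widest range of any member over the 8 arrays (0.77). Its 7.50, 7.56, 7.18 and 6.93 in MLC/SOD1G93A samples and 7.22, 6.99, 6.79 and 7.03 in FVB samples overlapped, with a difference of 0.29 ± 0.16 (SE, unadjusted p = 0.0988).

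The 3 synapsins tether vesicles to the cytoskeleton and to each other. Syn1, Syn2 and Syn3 differed by −0.0068, 0.035 and 0.036, and all 3 intervals stayed within 1.2-fold. Syn1 gave 10.58, 10.59, 10.64 and 10.60 in MLC/SOD1G93A samples against 10.71, 10.60, 10.41 and 10.70 in FVB samples. FVB replicate 3 was the lowest array for Syn1 and for Syn2.

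FVB replicate 3 was low for many members. It was the lowest FVB array for 44 of 94 members, where the other FVB arrays were lowest for 9, 23 and 18. Among the 17 release genes of neurons chosen as the core of the machinery it was lowest for 11. The core genes had a median difference of −0.040, 5 were higher and 12 lower, 10 intervals lay within 1.2-fold and all 17 within 1.5-fold.

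**Figure D3:**
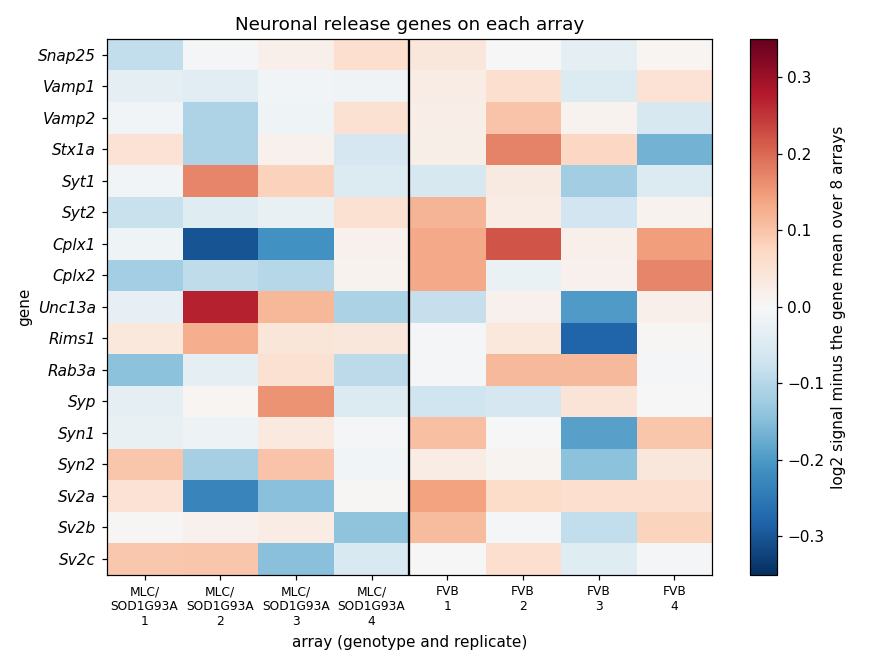
Log2 signal of 17 neuronal release genes (rows) on each array (columns, MLC/SOD1G93A left and FVB right), shown as the difference from the gene's mean over the 8 arrays (colour, red above and blue below). Cplx1 is lowest on MLC/SOD1G93A replicates 2 and 3, Rims1, Syn1 and Unc13a are lowest on FVB replicate 3, and most other cells are pale.

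Rab3 proteins are the GTPases of synaptic vesicles, and 5 of the 8 genes of Rab3 and its regulators were higher and 3 lower, with a median of 0.014 and no unadjusted p under 0.05. Rab3a, the main form in neurons, gave 10.62, 10.74, 10.82 and 10.68 in MLC/SOD1G93A samples against 10.76, 10.88, 10.88 and 10.76 in FVB samples. MLC/SOD1G93A replicate 3 lay inside the FVB range and the other 3 arrays below it (−0.11 ± 0.074 SE, unadjusted p = 0.186). Snap91, AP180, which recruits clathrin when vesicle membrane is taken back, differed by 0.032 ± 0.068 (SE).

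The 12 other Rab genes held the 2 lowest p of all members. Rab37, described in mast cell granules and insulin secretion, gave 8.13, 7.76, 7.75 and 7.93 in MLC/SOD1G93A samples against 8.32, 8.33, 8.50 and 8.18 in FVB samples. Every MLC/SOD1G93A array lay below every FVB array (−0.44 ± 0.11 SE, 95% interval −0.69 to −0.19, limma unadjusted p = 0.00371, adjusted p = 0.684). Leaving out any 1 array gave differences from −0.52 to −0.38, each with an unadjusted p of 0.0119 or less. The order of the 8 arrays in Rab37 was close to their order in oligodendrocyte markers, with MLC/SOD1G93A replicates 2 and 3 lowest and FVB replicate 3 highest in both. With the oligodendrocyte marker mean as a covariate the difference was 0.020 (unadjusted p = 0.887). Here too the level of oligodendrocyte, astrocyte or microglia markers and the genotype cannot be told apart.

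Rab38, which sends enzymes to melanosomes in pigment cells, gave 5.75, 5.78, 5.72 and 5.78 in MLC/SOD1G93A samples against 5.47, 5.59, 5.44 and 5.63 in FVB samples. Its MLC/SOD1G93A arrays were tightly grouped above all FVB arrays, close to the median row of the array, and the difference was 0.23 ± 0.071 (SE, 95% interval 0.068 to 0.39, limma unadjusted p = 0.0109, adjusted p = 0.684). On the 4 arrays with low sensory neuron markers it was 0.30 (unadjusted p = 0.0524). These were MLC/SOD1G93A replicates 3 and 4, with high Xist, and FVB replicates 1 and 3, with low Xist. Genotype and sex therefore cannot be told apart on them. With the marker means of oligodendrocytes, Schwann cells or caudal Hox genes as a covariate the difference was 0.11 (unadjusted p = 0.459), 0.13 (unadjusted p = 0.336) or 0.15 (unadjusted p = 0.188). Without the 12 other Rab genes, the 82 remaining members had a median difference of 0.0002, with 41 higher and 41 lower.

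**Figure D4:**
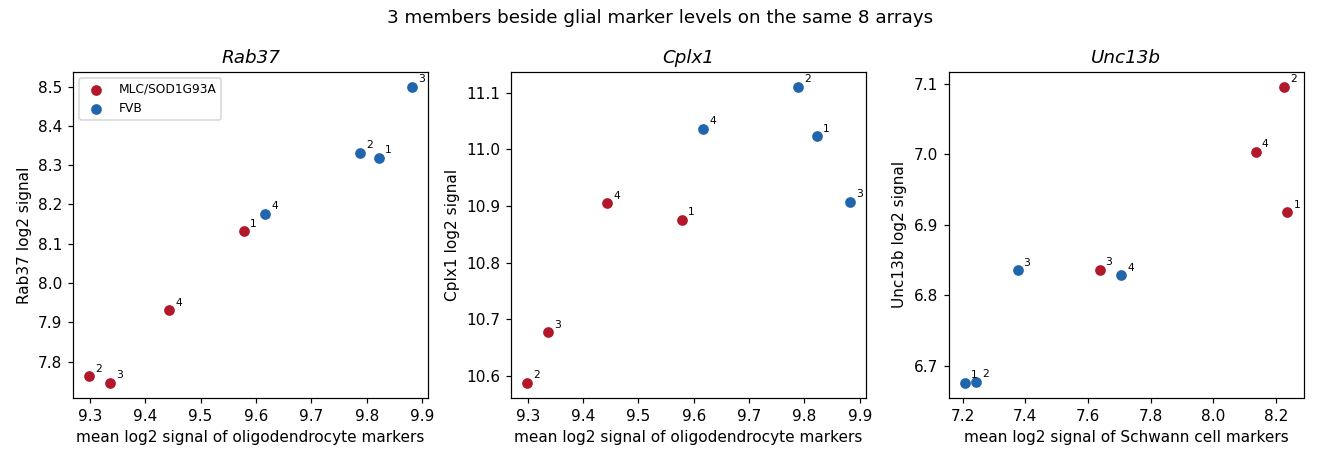
Log2 signal of Rab37 and Cplx1 against the mean log2 signal of 11 oligodendrocyte markers, and of Unc13b against that of 8 Schwann cell markers, on the same 8 arrays (red MLC/SOD1G93A, blue FVB, numbered by replicate). The genotypes lie at opposite ends of the oligodendrocyte axis without overlap, and Rab37 follows that axis more closely than Cplx1 does.

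Paralogues that fill the same role were set against each other within each array, which removes differences in overall signal. Of the 6 pairs, none differed between genotypes by an exact two-sided permutation test over the 70 relabellings, whose smallest possible p is 0.0286. The log2 ratio of Syt1 to Syt2 was 1.27, 1.42, 1.31 and 1.104 in MLC/SOD1G93A samples and 1.03, 1.21, 1.15 and 1.14 in FVB samples, a difference of 0.14 (exact permutation p = 0.114, adjusted over the 6 pairs 0.514). Only MLC/SOD1G93A replicate 4 fell among the FVB arrays.

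The ratio of Cplx1 to Cplx2 differed by −0.11 (exact permutation p = 0.314), so the lower signal of Cplx1 was not set apart from that of Cplx2 at this number of arrays. Sv2a against Sv2b differed by −0.11 (exact permutation p = 0.343) and Syn1 against Syn2 by −0.042 (exact permutation p = 0.486). Vamp1 against Vamp2 differed by −0.0050 (exact permutation p = 0.943). The ratio of Rims1 to Rims2 differed by 0.042 (exact permutation p = 0.171). After adjustment over the 6 pairs these p-values ran from 0.514 to 0.943. Signals of different probes are not on one scale, so only the difference between genotypes can be read from such a ratio.

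**Figure D5:**
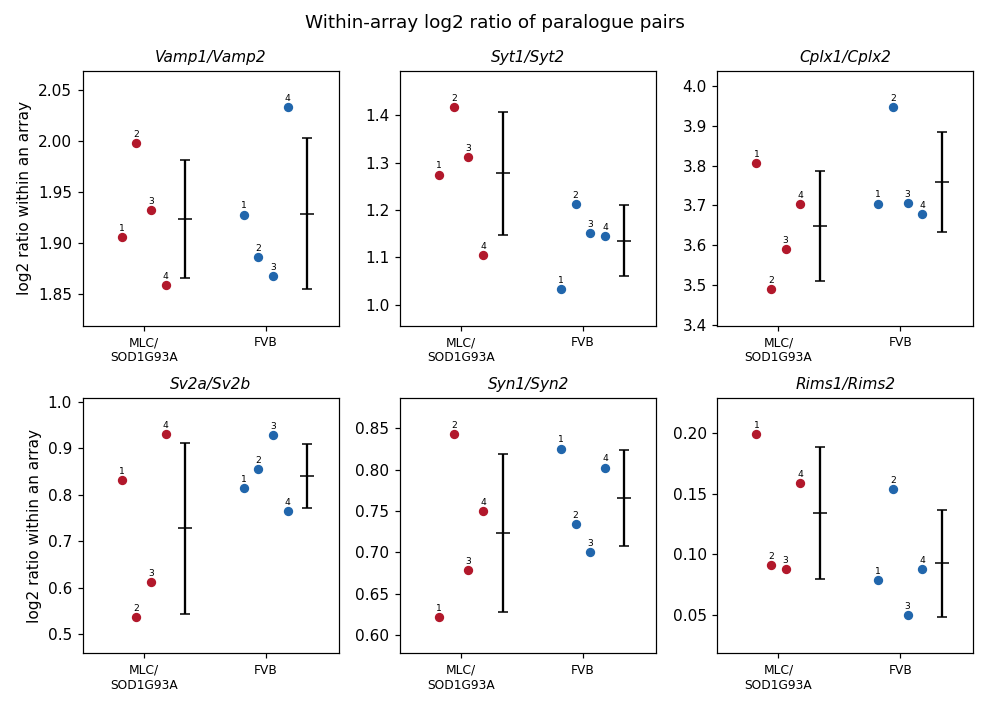
Log2 ratio of 6 paralogue pairs within each array (points, numbered by replicate), with mean and SD beside each group, MLC/SOD1G93A left and FVB right; each panel has its own y axis. The genotypes overlap in all 6 pairs, and Syt1/Syt2 has the lowest p (0.114).

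The neighbouring steps of the vesicle cycle were read from 6 further lists, none of whose genes passed the adjusted threshold. Of the 15 active zone scaffold genes analysed (Bassoon, Piccolo, liprins, neurexins), 11 were higher and 4 lower, and none had an unadjusted p under 0.05 (median 0.035). The 10 genes of dense-core vesicles, which store peptides, likewise had none (6 higher, 4 lower, median 0.023). Neither list had a gene whose genotypes did not overlap.

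Endocytosis, which takes vesicle membrane back after fusion, had 5 higher and 15 lower of 20 genes, with 3 lower at an unadjusted p under 0.05 (15% of the list, against 3.08% of all rows) and a median of −0.044. Bin1, an amphiphysin that bends membrane and is also made by oligodendrocytes, gave 10.02, 9.65, 9.83 and 10.00 in MLC/SOD1G93A samples against 10.11, 10.15, 10.04 and 10.12 in FVB samples (−0.23 ± 0.095 SE, unadjusted p = 0.0424). Synj2, a lipid phosphatase that helps shed clathrin, differed by −0.26 ± 0.095 (SE, unadjusted p = 0.0260), and Sh3gl2, endophilin A1, by −0.24 ± 0.099 (SE, unadjusted p = 0.0393). The genotypes did not overlap for 3 genes of the list, Bin1 and Sh3gl2 among them, all lower (15%, against 2.1% of all rows). Bin1 was lowest on MLC/SOD1G93A replicates 2 and 3, as were Cplx1 and Sv2a, and oligodendrocyte markers were lowest there too.

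After fusion the SNARE complex is pulled apart by NSF and its adaptors. Of 9 genes of disassembly and chaperones, 2 were higher and 7 lower (median −0.034), with 1 lower at an unadjusted p under 0.05 (11.1%, against the same 3.08%). Napa, the adaptor alpha-SNAP, gave 8.18, 8.22, 8.19 and 8.13 in MLC/SOD1G93A samples against 8.36, 8.35, 8.26 and 8.34 in FVB samples, with no overlap (−0.15 ± 0.063 SE, unadjusted p = 0.0455). Of the 9 genes, 2 had genotypes that did not overlap, both lower and Napa among them (22.2%, against 2.1% of all rows). Of 11 C2-domain relatives of the synaptotagmins, 6 were higher and 5 lower, with 1 lower at an unadjusted p under 0.05 (9.09% of the list, against 3.08% of all rows). This was Sytl2, a Rab27 effector, at 8.51, 8.08, 7.84 and 8.22 in MLC/SOD1G93A against 8.77, 8.49, 8.70 and 8.43 in FVB samples (−0.43 ± 0.15 SE, unadjusted p = 0.0177). MLC/SOD1G93A replicate 1 lay inside the FVB range of Sytl2.

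The last list held 11 other proteins of the vesicle membrane, among them the transmitter transporters, with 1 higher and 10 lower and a median of −0.058. Only Scamp3, a carrier protein of recycling membrane, had an unadjusted p under 0.05 (9.09% of the list, against 3.08% of all rows lower). It differed by −0.19 ± 0.081 (SE, unadjusted p = 0.0461). Neither this list nor that of the C2-domain relatives had a gene whose genotypes did not overlap. Slc18a3, the acetylcholine transporter that marks cholinergic vesicles of motor neurons, gave 8.42, 8.13, 8.24 and 8.34 in MLC/SOD1G93A samples against 8.74, 8.36, 8.28 and 8.50 in FVB samples. These overlapped, and the difference was −0.19 ± 0.12 (SE, unadjusted p = 0.146).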

How the data were processed

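For each transcript cluster (a row, the array's unit for a gene), the deposited value was a log2 signal. The submitters' processing notes name Affymetrix Expression Console and RMA, and the study's methods name RMA summary and sketch quantile normalization in Transcriptome Analysis Console. Their versions, any filter and the array's genome build are not given in the sources used here. This processing makes the arrays' distributions nearly alike, so a shift common to most genes would not be seen. There is no read depth, and precision is limited by the number of arrays.

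Deposited log2 values entered the tests as they were, without pseudocount or filter. Of 41345 rows, 23521 had 1 symbol in the platform annotation, 1820 several and 16004 none. All were tested unpaired, as in the study's methods, with limma 3.58.1 (lmFit, eBayes) in R 4.3.3, with Benjamini-Hochberg adjustment over all rows. Pairwise correlations of arrays were 0.978 to 0.986 within genotypes and 0.977 to 0.987 between them. Another 6 rows of members (second rows) and 2 rows that pair Rab3b or Vamp1 with another symbol were not used in the main values. The procedure was tested on simulated data. Promoter sequences came from RefSeq (GRCm38.p6). Plots and motif searches used Python 3.11.15 and matplotlib 3.10.9.

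The members and lists were chosen with earlier results of these data known. Members named were the 19 genes of a core release list (17 analysed), those with an unadjusted p under 0.05 or groups that do not overlap, and the lowest p of each role group; from the 6 other lists, at most 3 genes with an unadjusted p under 0.05. Rims2, Cplx3, Cplx4, Stx11, Vamp5, Stxbp5, Unc13d, Synpr, Vamp7, Slc18a3 and members named only in the closing section lie outside that rule and were named after their values were seen. Of 11 marker lists, endothelium (mean difference −0.22, 6 of 6 lower) is named only beside Stxbp2. Skeletal muscle (−0.0091, 3 of 8 lower) is not described in the report. The dorsal horn mean differed by 0.0005 (6 of 11 lower). Alternatives were the methods' t-test, eBayes with trend or robust, array weights, a filter on dim rows, the mean of a gene's rows, each array left out, the replicate number as a block, median centring, and the marker means or Xist as covariates.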

Additional observations from a re-analysis of the deposited data

Results flagged for a closer look

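Among 64 groups of 4 arrays checked (the named members and the paralogue ratios in each genotype), 8 had 1 array far from the other 3, by Dixon's 95% critical value for 4 values. Chance flags about 1 in 20 groups. Rims1 stood out in both genotypes, at 8.494 on MLC/SOD1G93A replicate 2 (others 8.404 to 8.410) and at 8.088 on FVB replicate 3 (others 8.360 to 8.404). FVB replicate 3 was also low for Syn2, at 9.715 against 9.870 to 9.900. MLC/SOD1G93A replicate 2 was low for Stxbp2, at 6.779 against 7.120 to 7.130. MLC/SOD1G93A replicate 4 was low for Sv2b, at 9.493 against 9.639 to 9.660, and high for Snap91, at 10.796 against 10.735 to 10.742. FVB replicate 1 was high for Sv2a, at 10.559 against 10.476 to 10.482. The log2 ratio of Cplx1 to Cplx2 was high on FVB replicate 2, at 3.947 against 3.677 to 3.706.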

How the results depend on the processing

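No member passed the adjusted threshold under any of the 23 alternatives, and the median difference of the members ran from −0.033 to 0.012 over those that gave one. At an unadjusted p under 0.05, the count of higher members (2) was 4 with neuron markers as a covariate, 1 with sensory neuron markers and 0 with Schwann cell markers or caudal Hox genes as a covariate. The count of lower members (2) was 4 by the methods' t-test and by eBayes with a trend, and 0 with caudal Hox genes as a covariate. Leaving out 1 array gave 1 to 3 higher and 1 to 3 lower members. The lower count was 1 without MLC/SOD1G93A replicate 2 or 3 (Cplx1 lost), and the higher count was 1 without FVB replicate 1 or 2 (Unc13b lost). After the data were seen, 2 alternatives were added. On the 4 arrays with low sensory neuron markers, 0 were higher and 2 lower (Rab37 and Stx11). These were MLC/SOD1G93A replicates 3 and 4, with high Xist, and FVB replicates 1 and 3, with low Xist. Genotype and sex therefore cannot be told apart on them. With oligodendrocyte markers as a covariate 0 were lower, and the 2 higher were Rab32 and Stx4a. The calls of Rab37, Rab38, Cplx1 and Unc13b were all lost with this covariate, and Rab37 differed by 0.020, its sign turned. Rab37 kept its call in 21 of 23 alternatives, Rab38 in 19, Cplx1 in 14 and Unc13b in 11. The caudal Hox covariate took the call from all 4, with Rab37 at −0.26 (unadjusted p = 0.123), Rab38 at 0.15 (unadjusted p = 0.188), Cplx1 at −0.33 (unadjusted p = 0.0540) and Unc13b at 0.26 (unadjusted p = 0.0828). The differences of Cplx1 and Unc13b were thus no smaller than without it, and the cause was not tested.

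Among named members without a call, 42 of 491 fits had the other sign. The log2 ratio of Syt1 to Syt2 differed by 0.096 to 0.20 with 1 array left out, and by 0.20 without MLC/SOD1G93A replicate 4 (exact permutation p = 0.0286, the smallest that 4 against 3 arrays allow). With the replicate block, 1 member was higher (Rab38) and 3 lower (Cplx1, Rab37, Stxbp2), and Unc13b had an unadjusted p = 0.0784. The deviations of same-numbered arrays correlated at −0.0442, 0.180, −0.0831 and 0.242, and MLC/SOD1G93A replicates 2 and 4, but not 1 and 3, correlated best with their own number. The labels give no shared litter or batch, and the numbers were not taken as pairs. Within the 4 numbers the smallest possible exact permutation p of a ratio is 0.125.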

Other observations

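Of the 94 members, 5 lie on the X chromosome (Rab33a, Rab39b, Syn1, Syp and Vamp7). Vamp7, a VAMP of late endosomes that tetanus toxin does not cut, gave 8.96 and 9.09 on the MLC/SOD1G93A arrays with high Xist and 9.18 on the FVB array with high Xist. The other arrays gave 8.94 and 8.51 in MLC/SOD1G93A and 8.78, 8.79 and 8.81 in FVB samples. The array of highest Vamp7 within each genotype was thus one with high Xist. For Rab33a, Rab39b, Syn1 and Syp the highest MLC/SOD1G93A array was replicate 3, also one with high Xist. Their highest FVB array was one with low Xist. Between genotypes Vamp7 differed by −0.013 ± 0.15 (SE).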
